A study of Mus musculus with 8 samples.

Results

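A set of 40 cell cycle genes was listed by name, from the licensing of replication origins to cell division, and 37 of them were found on the array, of 19505 genes in all. A gene was matched through the single gene symbol that the platform annotation gives to a row of the deposited value table, and no matched gene had more than 1 row. Mcm7, Ccnb1 and Foxm1 were not matched and were not analysed here. RNA came from colon epithelial cells of C57BL/6J mice, on 8 Affymetrix arrays with 2 arrays in each of 4 groups. The groups were wild-type (WT) mice without treatment, WT mice that drank 3.5% dextran sulfate sodium (DSS, a polymer toxic to the colon lining) in their water over 2 days, mice lacking SMS2 (the sphingomyelin synthase encoded by Sgms2) without treatment, and SMS2 knockout mice given the same DSS. The labels call the arrays of a group biological replicates, and the p-values rest on the spread between such samples. The sources used here do not give the age or sex of the mice, the design of the knockout allele or whether mice were pooled.

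A dividing cell first licenses its replication origins by loading the MCM helicase, which Cdc6 and Cdt1 bring to DNA. In S phase it copies its genome with the help of the sliding clamp Pcna and of nucleotides made by ribonucleotide reductase (Rrm1, Rrm2) and thymidylate synthase (Tyms). Mitosis is driven by Cdk1 with its B-type cyclins, by the kinases Plk1, Aurka and Aurkb, and by the anaphase-promoting complex, a ubiquitin ligase that Cdc20 activates and that ends mitosis. In the colon, dividing cells sit in the lower crypt, while the cells of the upper crypt and surface have left the cycle.

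The targeted gene Sgms2 had log2 signals of 10.76 to 11.27 on the 4 WT arrays and 6.47 to 7.35 on the 4 knockout arrays, so the arrays carried the genotype of their labels. All 12 epithelial genes looked at (among them Epcam, Cdh1 and Vil1) lay above background on every array, with list means of 15.995 to 16.31. An array's background was set at percentile 75 of its 5222 negative-control rows, which lay between 5.9996 and 6.24 on the log2 scale. Of the 37 cell cycle genes, 34 lay above it on all 8 arrays. Cdc6 lay under it on every array, Cenpf on 4 and Gins2 on 1. Transcripts of 3 Y-linked genes (Eif2s3y, Uty and Kdm5d) lay above background on all 4 DSS arrays and on none of the 4 untreated arrays, so every DSS comparison also sets arrays with these transcripts against arrays without them. Presence of Y-linked RNA, and so sex as far as it shows there, coincides with DSS treatment on all 8 arrays. They cannot be told apart in this design, and the part of sex in the DSS differences was not tested.

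Promoters are shown here because mitotic genes fell more than replication genes in WT mice with DSS, by a margin that depended on single arrays. Without both DSS replicate 1 arrays the median log2 differences in WT were -0.98 for S phase and -0.99 for mitotic genes. The promoters are RefSeq windows of 300 bases on the mouse assembly GRCm38.p6, from 250 bases before the annotated start of transcription to 50 bases from it, and 30 of the 37 genes matched a window. Searched on both strands were TTTGAA, the core of the cell cycle homology region (CHR) that the DREAM and MuvB complexes bind in mitotic promoters; CCAAT, the box bound by NF-Y; and TTTCCCGC, TTTGGCGC and TTTCGCGC, which are E2F site letters of replication genes. The E2F letters can overlap each other on opposite strands, as in Mcm5 and Mcm6, and CCAAT can overlap its own reverse complement, as in Ube2c. The windows of Ube2c (chr2:164769679-164769978, + strand), Cdc20 (chr4:118437294-118437593, - strand), Ccnb2 (chr9:70421505-70421804, - strand) and Plk1 (chr7:122159185-122159484, + strand) belong to 4 of the mitotic genes that fell in WT. Hjurp (chr1:88277530-88277829, - strand) stands for a gene with another pattern, and Mcm5 (chr8:75109259-75109558, + strand) and Mcm6 (chr1:128359656-128359955, - strand) for the helicase. Each is read 5′ to 3′ on the strand of its gene, and capitals mark the letters of the searched motifs or their reverse complements:
Ube2c: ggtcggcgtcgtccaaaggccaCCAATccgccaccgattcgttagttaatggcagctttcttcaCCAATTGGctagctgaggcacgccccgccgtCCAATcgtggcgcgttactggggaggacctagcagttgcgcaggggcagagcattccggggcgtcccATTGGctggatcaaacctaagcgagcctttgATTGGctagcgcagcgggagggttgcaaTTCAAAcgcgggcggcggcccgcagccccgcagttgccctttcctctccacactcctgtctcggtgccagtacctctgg
Cdc20: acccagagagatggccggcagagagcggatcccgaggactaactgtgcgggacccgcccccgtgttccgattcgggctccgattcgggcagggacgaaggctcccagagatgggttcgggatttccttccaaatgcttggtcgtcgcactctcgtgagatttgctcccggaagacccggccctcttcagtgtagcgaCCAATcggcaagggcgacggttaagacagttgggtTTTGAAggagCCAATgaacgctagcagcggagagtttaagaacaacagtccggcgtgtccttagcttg
Ccnb2: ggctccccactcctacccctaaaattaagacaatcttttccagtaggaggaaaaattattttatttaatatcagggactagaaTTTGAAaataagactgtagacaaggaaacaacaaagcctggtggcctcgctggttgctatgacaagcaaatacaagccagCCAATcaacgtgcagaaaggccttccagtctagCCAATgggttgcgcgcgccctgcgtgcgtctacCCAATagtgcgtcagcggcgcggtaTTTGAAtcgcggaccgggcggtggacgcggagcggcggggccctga
Plk1: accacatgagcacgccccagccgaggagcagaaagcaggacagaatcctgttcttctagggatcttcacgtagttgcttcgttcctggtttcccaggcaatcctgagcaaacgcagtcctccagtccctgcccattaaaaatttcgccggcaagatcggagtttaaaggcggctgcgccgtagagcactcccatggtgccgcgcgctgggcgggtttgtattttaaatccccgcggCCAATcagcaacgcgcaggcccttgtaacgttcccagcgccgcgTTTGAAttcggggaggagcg
Hjurp: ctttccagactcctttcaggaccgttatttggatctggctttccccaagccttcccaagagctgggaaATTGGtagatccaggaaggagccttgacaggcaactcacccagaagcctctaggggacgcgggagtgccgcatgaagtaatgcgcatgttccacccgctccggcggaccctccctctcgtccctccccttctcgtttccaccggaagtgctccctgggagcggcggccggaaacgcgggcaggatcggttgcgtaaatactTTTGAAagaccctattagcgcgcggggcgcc
Mcm5: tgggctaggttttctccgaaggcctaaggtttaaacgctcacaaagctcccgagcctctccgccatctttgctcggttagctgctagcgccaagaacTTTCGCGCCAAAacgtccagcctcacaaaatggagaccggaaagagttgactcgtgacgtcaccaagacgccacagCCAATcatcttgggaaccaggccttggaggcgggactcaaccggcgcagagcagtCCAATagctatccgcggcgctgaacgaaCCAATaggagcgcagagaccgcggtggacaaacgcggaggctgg
Mcm6: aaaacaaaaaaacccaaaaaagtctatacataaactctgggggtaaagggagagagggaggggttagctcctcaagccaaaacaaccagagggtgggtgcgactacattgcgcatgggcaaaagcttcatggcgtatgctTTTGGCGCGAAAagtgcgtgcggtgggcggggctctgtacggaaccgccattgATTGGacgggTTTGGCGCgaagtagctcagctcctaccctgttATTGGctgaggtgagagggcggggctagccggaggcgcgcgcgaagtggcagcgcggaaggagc

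TTTGAA stood in 14 of the 18 mitotic genes with a window and in 1 of 11 S phase genes (Mcm2), against 20.2% of all 27025 genes with a window, counting a gene if any of its windows held the letters. In 13 of those 14 it began within 60 bases of the start of transcription, as at 29 bases before it in Ube2c, 18 before in Cdc20, 4 after in Ccnb2 and 30 after in Plk1. CCAAT stood in 16 of 18 mitotic and 8 of 11 S phase genes, against 41.1% of all genes. The 3 E2F forms stood in 6 of 11 S phase genes (Mcm3, Mcm5, Mcm6, Cdc6, Cdt1 and Uhrf1) and in 1 of 18 mitotic genes (Cdk1), against 2.12% of all. These are counts of letters and no evidence of binding, and the genes were listed with their cell cycle roles known. TTTAAA, a second form of the CHR core, was searched too and is not marked in the windows: it stood in 5 of 18 mitotic and 3 of 11 S phase genes, against 14.9% of all genes, and did not set the classes apart. Among tested genes with a promoter window, the median log2 difference with DSS in WT was -0.07 with TTTGAA and -0.05 without it. It was -0.03 with TTTAAA and -0.06 without, and -0.07 with CCAAT and -0.05 without. With an E2F form it was -0.14, and without one -0.05. It was -0.12 for genes with both TTTGAA and CCAAT.

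**Figure D1:**
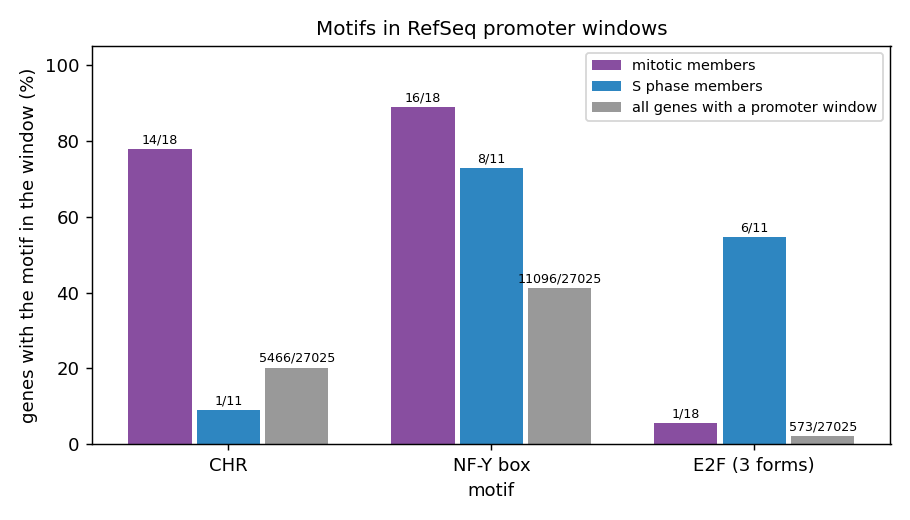
Share of genes (%) whose RefSeq promoter window holds each motif, for mitotic genes, S phase genes and all genes with a window, with counts above the bars. The NF-Y box is the CCAAT motif. The CHR core stands in 14 of 18 mitotic and 1 of 11 S phase genes, and the E2F forms in 1 of 18 and 6 of 11.

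In WT mice given DSS, mitotic genes were lower than in untreated WT mice. The ubiquitin-conjugating enzyme Ube2c, which works with the anaphase-promoting complex, fell 3.68-fold, its activator Cdc20 3.24-fold and the checkpoint kinase Bub1b 2.63-fold. Cyclin B2 (Ccnb2) and the kinases Plk1 and Aurka fell by 2.57-fold, 2.57-fold and 2.30-fold. Of the 22 mitotic genes 9 fell and none rose, while by limma 0 of the 13 S phase genes passed the test (5 were lower at an unadjusted p under 0.05, where 7.14% of all tested genes were). Differences are on the log2 scale with their standard error, from limma fitted to all 8 arrays, with Benjamini-Hochberg adjustment over the 13003 genes tested and a threshold of 0.05. Of the 37 genes together 9 fell (24.3%) and 0 rose, where 1.12% of all tested genes fell and 2.91% rose. In bulk RNA, fewer dividing cells and less RNA of these genes per cell cannot be told apart.

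Ube2c had log2 signals of 11.34 and 11.50 in WT without DSS and 9.65 and 9.43 in WT with it (replicates 1 and 2 in this order throughout), and of 11.76 and 11.85 against 10.29 and 11.16 in the knockout. Its difference in WT was -1.88 ± 0.29 (adjusted p = 0.00323). Both WT DSS arrays lay below all other arrays. Ube2c passed in WT with each array left out in turn, and it was the only one of the 9 genes to do so.

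Cdc20 stood at 7.97 and 8.06 on the untreated WT arrays and 6.40 and 6.24 on the WT DSS arrays, with a difference of -1.70 ± 0.36 (adjusted p = 0.0221). Its knockout signals were 8.43 and 8.22 without DSS and 7.02 and 8.37 with DSS. The second knockout DSS array thus lay at the untreated level and the first between the WT groups.

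Bub1b, which holds anaphase back until chromosomes are attached, had signals of 8.31 and 7.72 on the untreated WT arrays and 6.75 and 6.49 on the WT DSS arrays (-1.40 ± 0.26, adjusted p = 0.0114). In the knockout it was at 7.41 and 7.69 without DSS and at 7.38 and 7.62 with DSS. The knockout arrays of both treatments overlapped, between the WT groups. Its partner Bub1 differed by -1.41 ± 0.40 in WT (adjusted p = 0.0824) and by -0.46 ± 0.40 in the knockout.

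Plk1 was at 11.57 and 11.72 on the untreated WT arrays and 10.50 and 10.06 on the WT DSS arrays (-1.36 ± 0.27, adjusted p = 0.0150), and at 11.83 and 11.89 against 10.56 and 11.19 in the knockout. Aurka, the kinase of the spindle poles, was at 8.73 and 8.53 against 7.63 and 7.23 in WT (-1.20 ± 0.27, adjusted p = 0.0298) and at 8.40 and 8.80 against 7.65 and 8.15 in the knockout. For both kinases all 4 DSS arrays lay below all 4 untreated arrays. Aurkb and Birc5 (survivin), which act together in the chromosomal passenger complex, differed by -0.81 ± 0.34 and -0.94 ± 0.33 in WT and did not pass.

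Ccnb2 had signals of 11.51 and 11.41 in untreated WT, 9.95 and 10.24 on the WT DSS arrays, 11.30 and 11.38 in the untreated knockout and 10.69 and 11.05 in the knockout with DSS. The WT difference was -1.36 ± 0.24 (adjusted p = 0.00663). Cdk1, the kinase that cyclin B2 activates, was at 8.91 and 7.91 against 7.25 and 6.63 in WT, and at 8.03 and 8.001 against 6.69 and 8.33 in the knockout. Its WT difference was -1.47 ± 0.48, with replicates further apart than those of Ccnb2, and did not pass (adjusted p = 0.134). Cyclin A2 (Ccna2), which acts in both S phase and early mitosis, differed by -0.38 ± 0.46.

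Among genes of the spindle and of cell division, Kif20a, a motor of the central spindle, was at 9.30 and 9.07 on the untreated WT arrays and 7.69 and 8.20 on the WT DSS arrays (-1.24 ± 0.29, adjusted p = 0.0378). Tpx2, which activates Aurka on the spindle, was at 8.90 and 8.93 against 7.57 and 7.77 (-1.25 ± 0.30, adjusted p = 0.0418). All WT DSS arrays lay below the untreated ones for both genes. In the knockout Kif20a was at 9.55 and 9.65 against 8.18 and 8.94, and Tpx2 at 8.98 and 8.93 against 7.47 and 8.46. Kif11, the motor that pushes spindle poles apart, was at 10.16 and 10.23 against 8.99 and 9.22 in WT (-1.09 ± 0.28, adjusted p = 0.0608) and at 10.28 and 10.08 against 8.999 and 9.83 in the knockout. It passed when the DSS changes of both genotypes were averaged (-0.93 ± 0.20, adjusted p = 0.0193).

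The other spindle and kinetochore genes apart from Hjurp did not pass in WT. Nusap1, which bundles spindle microtubules, was at 11.49 and 11.38 against 10.33 and 10.56 in WT (-0.99 ± 0.33), and at 11.46 and 11.30 against 10.48 and 11.65 in the knockout, where the groups overlapped. The others differed in WT by less, Kif23 by -0.83, Prc1 by -0.77, Cenpe by -0.69 and Cenpf by -0.52. Cenpf lay under the background on both WT DSS arrays, so its difference there is a bound of at least 1.25-fold. The proliferation marker Mki67 had signals of 11.72 and 12.15 on the untreated WT arrays and 10.71 and 11.51 on the WT DSS arrays (-0.82 ± 0.30, adjusted p = 0.186), and of 12.04 and 12.39 against 11.86 and 11.92 in the knockout. Top2a, which untangles chromosomes before they separate, was at 8.86 and 9.42 against 8.57 and 8.15 in WT (-0.78 ± 0.33, adjusted p = 0.270) and at 8.84 and 8.90 against 8.25 and 9.19 in the knockout. In WT all 22 mitotic genes had no overlap between DSS and untreated arrays, with DSS lower, where 24.1% of all tested genes had this (20.3% had DSS higher).

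**Figure D2:**
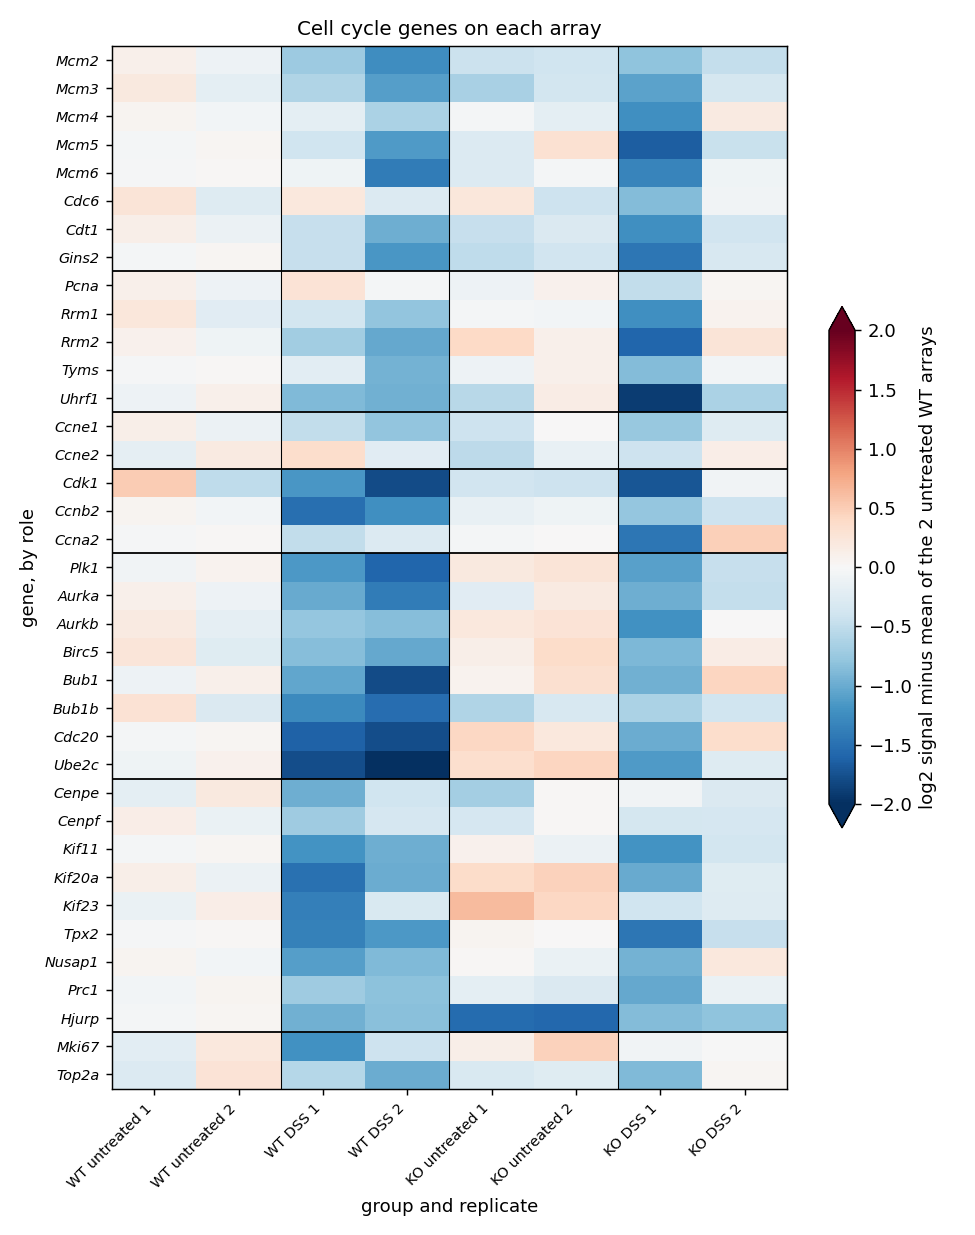
Log2 signal of the 37 genes (rows, grouped by role with lines between roles) on each of the 8 arrays (columns), minus the mean of the 2 untreated WT arrays; blue is lower. Most mitotic rows are blue on both WT DSS arrays and on knockout DSS replicate 1 and paler on knockout DSS replicate 2, and Hjurp is lowest on both untreated knockout arrays.

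S phase genes were lower in WT with DSS as well, by less in the median. Their median difference was -0.75 against -1.04 for mitotic genes and -0.05 for all tested genes. Of the 13, 12 were below 0, where 55.3% of all tested genes were. The difference nearest to 0 among these 12 was that of Cdc6 (-0.03), which lay under background on every array. The largest was Mcm2, a subunit of the helicase, with 8.63 and 8.42 on the untreated WT arrays and 7.79 and 7.28 on the WT DSS arrays (-0.99 ± 0.25, adjusted p = 0.0559), and 8.10 and 8.12 against 7.72 and 8.05 in the knockout. The helicase subunits Mcm3, Mcm4, Mcm5 and Mcm6 differed by -0.86, -0.41, -0.76 and -0.75, the licensing factor Cdt1 by -0.72 and the helicase partner Gins2 by -0.82. Mcm5 was at 8.74 and 8.81 on the untreated WT arrays and 8.39 and 7.64 on the DSS arrays. None of these passed. In WT 11 of the 13 S phase genes had no overlap between the groups, with DSS lower, where 24.1% of all tested genes had this.

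Among genes of DNA synthesis, Uhrf1, which carries DNA methylation through replication, was at 8.15 and 8.36 on the untreated WT arrays and 7.38 and 7.30 on the WT DSS arrays (-0.92 ± 0.37, adjusted p = 0.258). In the knockout it was at 7.70 and 8.41 against 6.36 and 7.62. Rrm2, Rrm1 and Tyms differed by -0.86, -0.58 and -0.57 in WT. Pcna was the exception, with 14.74 and 14.54 on the untreated WT arrays, 14.92 and 14.61 on the WT DSS arrays, 14.54 and 14.72 in the untreated knockout and 14.15 and 14.67 in the knockout with DSS. Its WT groups overlapped (0.12 ± 0.26, adjusted p = 0.885). Pcna also serves in DNA repair.

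The 2 E-type cyclins, which start S phase with Cdk2, gave differences on opposite sides of 0 in WT. Ccne1 was at 7.85 and 7.61 on the untreated WT arrays and 7.23 and 6.94 on the WT DSS arrays, and Ccne2 at 7.68 and 8.06 against 8.23 and 7.65. In the knockout Ccne1 was at 7.31 and 7.74 against 6.97 and 7.47, and Ccne2 at 7.35 and 7.73 against 7.45 and 8.005. The WT groups overlapped for Ccne2 (0.07 ± 0.29) and not for Ccne1 (-0.64 ± 0.27, adjusted p = 0.268), and neither passed. Cdc6 had no measured difference, being under the background on all arrays, with signals of 4.74 to 5.86.

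The 2 WT DSS arrays differed in the mean of their S phase genes and hardly in that of their mitotic genes. Single mitotic genes differed in both directions, from -0.75 for Bub1 to 1.06 for Kif23 (replicate 2 minus replicate 1). The mean over the 13 S phase genes was 9.24 and 9.10 on the untreated WT arrays and 8.82 and 8.27 on the WT DSS arrays. The mean over the 22 mitotic genes was 9.73 and 9.69 on the former and 8.60 and 8.65 on the latter. The mean of the S phase genes therefore fell by 0.46 less than that of the mitotic genes, or by 0.16 less without WT DSS replicate 1 and by 0.75 less without WT DSS replicate 2. WT DSS replicate 1 also carried transcripts of exocrine pancreas: the mean over 6 pancreatic genes was 12.48, with all 6 above background, against 6.54 and 1 of 6 on WT DSS replicate 2, 5.96 to 6.49 on the untreated arrays and 8.15 and 6.38 on the knockout DSS arrays. The part of this in the S phase values was not tested, and without both DSS replicate 1 arrays the medians were -0.98 for S phase and -0.99 for mitotic genes in WT.

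**Figure D3:**
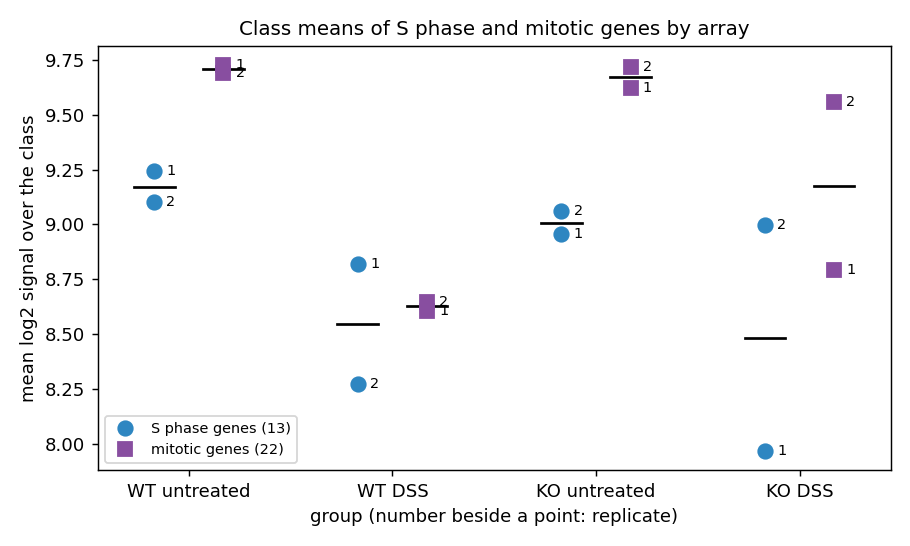
Mean log2 signal over the 13 S phase genes (circles) and the 22 mitotic genes (squares) on each array, with the replicate number beside each point and a bar at the group mean. Mitotic means are near 8.60 and 8.65 on both WT DSS arrays, while the knockout DSS arrays lie apart in both classes.

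The count in WT depended on single arrays. It was 1 gene without WT untreated replicate 1 (Ube2c), 2 without replicate 2 of that group (Bub1b and Ube2c) and 3 without WT DSS replicate 2 (Ccnb2, Ube2c and Kif23), and 14 without either knockout DSS array, whose own spread is then left out of the fit. Without both DSS replicate 1 arrays 19 genes fell, 8 of them S phase genes. Setting the arrays equal on the epithelium list moved the median of all tested genes from -0.05 to 0.10 and left 6 genes lower, with medians of -0.60 for S phase and -0.89 for mitotic genes.

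Fibroblast, endothelial and macrophage transcripts rose in the same WT comparison. The mean over 7 fibroblast genes was 8.22 and 8.65 on the untreated WT arrays and 11.42 and 12.14 with DSS. Of the 7, 6 passed, where 2.91% of all tested genes rose, and all 7 lay above background with DSS against 5 and 6 without. Smooth muscle was different: the mean over 6 genes was 11.90 and 13.0012 against 13.54 and 12.97 with DSS, so the groups overlapped, and 0 of the 6 passed. The mean over 5 endothelial genes was 6.44 and 6.26 against 8.30 and 8.60, and over 5 macrophage genes 5.41 and 5.41 against 6.999 and 7.52, with 4 of the 5 above background on each DSS array and 1 on each untreated array. The mean of the epithelium list was 16.31 and 16.21 against 16.23 and 15.995, and none of its 12 genes passed. The part of these cells in the values of the cell cycle genes was not tested. Of 5 tested crypt base and progenitor genes, Lgr5, a marker of crypt stem cells (-1.90), and Axin2, a target of Wnt signals (-1.42), fell in WT, and both also fell in the knockout (-1.84 and -1.97). Sox9, a factor of crypt progenitors on the same list, was at 14.10 and 13.66 without DSS and 14.81 and 14.60 with it in WT (0.83 ± 0.25, adjusted p = 0.106), so its DSS arrays lay higher without passing the test.

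In SMS2 knockout mice given DSS, no cell cycle gene passed the test against untreated knockout mice, and the 2 DSS arrays of this group differed from each other. Replicate 1 was low in nearly all of these genes and replicate 2 lay close to the untreated arrays. By limma 0 of 37 genes passed in either direction, where 0.538% of all tested genes rose and 0.392% fell, and at an unadjusted p under 0.05 the counts were 10 lower and 1 higher, where 4.95% and 4.57% of all tested genes were. The largest differences were those of Ube2c (-1.08 ± 0.29, adjusted p = 0.149), Mcm5 and Uhrf1 (both -1.06), Kif20a (-1.04 ± 0.29, adjusted p = 0.181), Plk1 (-0.99 ± 0.27, adjusted p = 0.163) and Tpx2 (-0.99 ± 0.30, adjusted p = 0.229). In 14 genes the DSS arrays lay below the untreated ones with no overlap, where 22.0% of all tested genes had this, and in 1 gene, Hjurp, they lay above, where 16.8% did.

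Knockout DSS replicate 2 was above replicate 1 in 36 of the 37 genes, all but Cenpe. The median gap was 0.85 over the 37 genes, 1.12 over S phase genes and 0.85 over mitotic genes, and 14 genes differed by over 1, where 5.81% of all tested genes did. The widest gaps were those of Ccna2, with 9.98 and 11.90, and Rrm2, with 7.51 and 9.35. Mcm5 was at 8.50 and 9.08 in the untreated knockout and 7.13 and 8.33 with DSS, so both DSS arrays were lower there. The class means were 7.97 and 8.995 for S phase and 8.79 and 9.56 for mitotic genes, against 8.96 and 9.06, and 9.62 and 9.72, in the untreated knockout.

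With replicate 2 left out, the median over the 37 genes was -0.95, where that of all tested genes was -0.09. With replicate 1 left out the 2 medians were 0.01 and 0.02. Wherever genes are counted with an array left out, a group with 1 array left is assumed to vary like the others. Replicate 1 also had the higher means of smooth muscle genes (15.65 against 13.45 in replicate 2), fibroblast genes (12.31 against 11.39) and pancreatic genes (8.15 against 6.38), and the epithelium means were 16.03 and 16.02. The part of these transcripts in the gap was not tested.

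**Figure D4:**
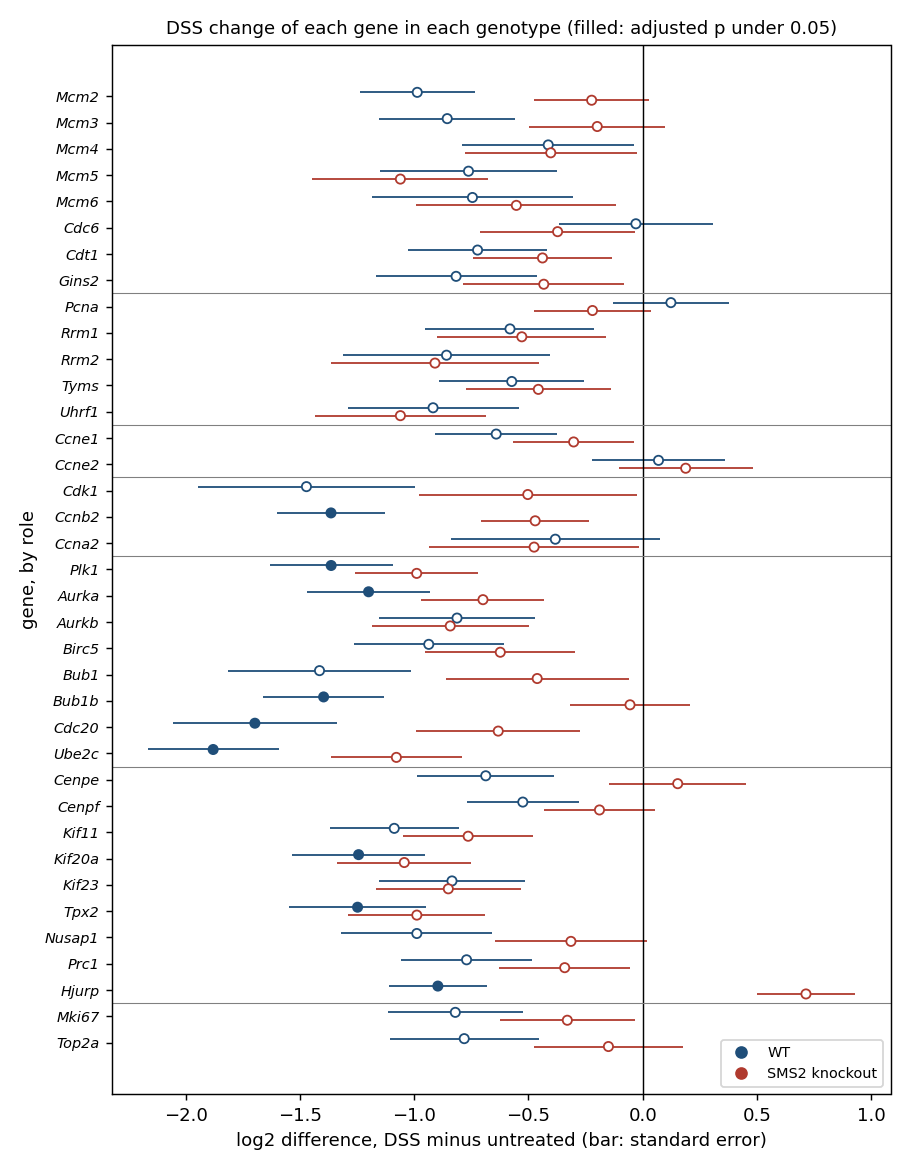
Log2 difference of each gene, DSS minus untreated, in WT (blue) and SMS2 knockout (red), with the standard error of the limma fit as bars; filled points have an adjusted p under 0.05. The 9 filled points are all WT and below 0, and Hjurp has values on opposite sides of 0.

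Neither the genotype comparison under DSS nor the test of the difference between the DSS changes called a cell cycle gene. Under DSS, mitotic genes tended to be above WT in the knockout, with a median of 0.53 against -0.06 for S phase genes and -0.02 for all tested genes. Of 22 mitotic genes 21 were above 0, the exception being Ccna2 (-0.11), and 9 had no overlap between the genotypes, with the knockout higher, where 16.1% of all tested genes had this. The largest differences were those of Cdc20 (1.38 ± 0.36, adjusted p = 0.201), Ube2c (1.19 ± 0.29, adjusted p = 0.158) and Bub1 (1.15 ± 0.40, adjusted p = 0.374). By limma 0 of the 37 passed, against 0.115% higher and 0.238% lower of all tested genes, and 7 were higher at an unadjusted p under 0.05, where 520 of all 13003 tested genes were. Cdc20 and Ube2c passed without knockout DSS replicate 1, and Bub1 too without both DSS replicate 1 arrays, while the mitotic median was 0.19 without knockout DSS replicate 2.

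For the interaction, the DSS change in the knockout minus that in WT, 0 of the 37 genes passed by limma, where 0.0461% of all tested genes were higher and 0.0308% lower. At an unadjusted p under 0.05 there were 3, all higher, where 1.88% of all tested genes were: Hjurp, Bub1b (1.34 ± 0.37, adjusted p = 0.418) and Ccnb2 (0.89 ± 0.33, adjusted p = 0.770). A smaller fall of mitotic genes in the knockout was therefore not shown. The 9 genes lower when the DSS changes of both genotypes were averaged were Ccnb2, Plk1, Aurka, Bub1b, Cdc20, Ube2c, Kif11, Kif20a and Tpx2, where 2.05% of all tested genes fell and 3.47% rose. Ube2c (-1.48 ± 0.20, adjusted p = 0.00120), Plk1 (-1.18 ± 0.19), Kif20a (-1.14 ± 0.21), Tpx2 (-1.12 ± 0.21) and Ccnb2 (-0.92 ± 0.17) passed there with each array left out. In that average the median over the 37 genes was -0.65, where that of all tested genes was -0.04. Without WT untreated replicate 1 the 2 medians were -0.64 and -0.03, and without knockout DSS replicate 2 they were -0.90 and -0.07.

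Hjurp, the chaperone that places the centromeric histone Cenpa on chromosomes, had a pattern of its own. Its signals were 11.72 and 11.79 in untreated WT, 10.80 and 10.91 on the WT DSS arrays, 10.22 and 10.18 in the untreated knockout and 10.88 and 10.94 in the knockout with DSS. The 2 arrays of each group lay within 0.12 of each other, and the genotypes differed without DSS and overlapped with it. It was the only one of the 37 genes that passed between the genotypes without DSS (-1.56 ± 0.22, adjusted p = 0.0142), where 0.0538% of all tested genes were lower and 0.338% higher in the knockout. With DSS it fell in WT (-0.90 ± 0.22, adjusted p = 0.0413), while its difference in the knockout was 0.71 ± 0.22 (adjusted p = 0.225).

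The genotype difference of Hjurp without DSS kept its call under the 10 alternatives that used all its arrays, and lost it without any one of the 4 untreated arrays. Over all of these it lay between -1.60 and -1.43. Fibroblast and smooth muscle transcripts were also higher in the untreated knockout, with means of 10.19 and 9.84 against 8.22 and 8.65, and of 14.38 and 14.70 against 11.90 and 13.0012; their part in the difference was not tested. The WT DSS call was weaker: it held under 6 of 10 such alternatives, and not with any one of the untreated arrays or either WT DSS array left out. Cenpa, the histone that Hjurp handles, fell in WT with DSS (-1.22 ± 0.27, adjusted p = 0.0279), and its difference in the knockout was -0.48 ± 0.27 (adjusted p = 0.657). Averaged over treatments, 0 of the 37 genes passed between the genotypes by limma, where 0.423% of all tested genes were higher and 0.254% lower, with 6 higher and 1 lower at an unadjusted p under 0.05 (5.42% and 5.54% of all tested genes). Hjurp was nearest (-0.75 ± 0.15, adjusted p = 0.0548), then Ube2c (0.79 ± 0.20, adjusted p = 0.121).

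Apart from Hjurp, no gene passed between untreated knockout and WT mice. The medians of the genotype difference were -0.12 for S phase genes and -0.01 for mitotic genes, and -0.03 for all tested genes. Mcm2 differed by -0.41 ± 0.25, Bub1b by -0.46 ± 0.26 and Ube2c by 0.39 ± 0.29, and no other gene than Hjurp had an unadjusted p under 0.05. Standard errors ran from 0.22 to 0.48, and a missed threshold does not show equal levels.

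**Figure D5:**
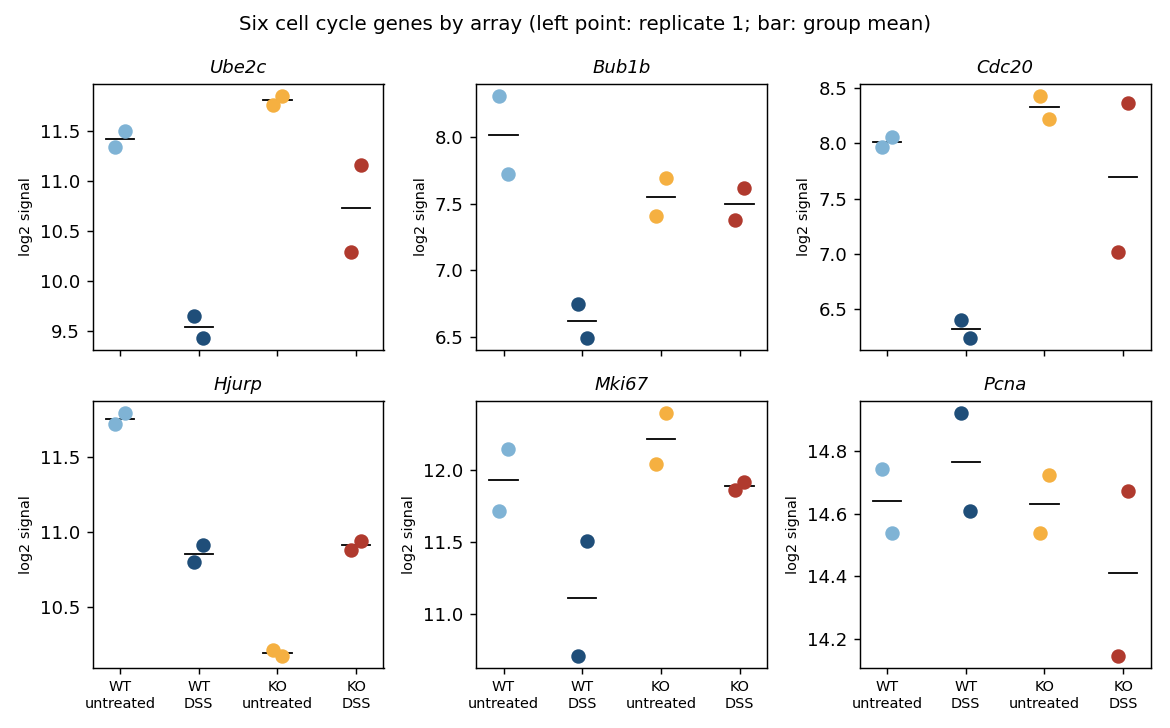
Log2 signal of 6 genes on each array (points, replicate 1 to the left) with the group mean as a bar; axes do not start at 0 and differ between panels. Ube2c, Cdc20 and Bub1b are lowest on the WT DSS arrays, Hjurp is lowest on the untreated knockout arrays, and the groups of Pcna overlap.

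Further genes of the cycle, from lists written with earlier results of these data known, also had larger median differences in mitosis than in S phase. The margin again differed between the WT DSS arrays. The mean over the other S phase genes was 8.03 and 7.93 on the untreated WT arrays and 7.65 and 7.40 with DSS. The mean over the other mitotic genes was 8.44 and 8.37 against 7.67 and 7.71. Of 75 other tested mitotic genes 10 fell in WT with DSS and none rose, with a median of -0.75, and 72 of the 75 were below 0, where 1.12% of all tested genes fell and 55.3% were below 0. The spindle gene Troap fell by 1.60, the microtubule depolymerase Kif2c by 1.15, the passenger complex subunit Cdca8 by 1.12 and the motor Kif20b by 1.32. Of 48 other tested S phase genes 4 fell, with a median over the 48 of -0.46. They were the kinase Cdc7 (-1.03), which fires origins, the origin subunit Orc1 (-1.001), the maintenance methyltransferase Dnmt1 (-1.06) and the repair nuclease Exo1. Exo1 lay under background on both WT DSS arrays, so its fall is a bound of at least 1.32-fold.

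In the knockout none of these genes passed by limma, with 10 mitotic genes lower, 7 S phase genes lower and 1 higher at an unadjusted p under 0.05, where 4.95% of all tested genes were lower and 4.57% higher. The medians were -0.48 for the 75 mitotic and -0.33 for the 48 S phase genes, with 72 and 40 below 0. Gtse1 (-0.95 ± 0.24, adjusted p = 0.132), Troap (-0.91 ± 0.25, adjusted p = 0.168), Ttk (-1.07) and Kif15 (-0.82) had the smallest p among mitotic genes. Among S phase genes they were Cdc7 (-0.78 ± 0.24, adjusted p = 0.256), Cdc45 (-0.95), Exo1, under background in both groups, and Gins1, with a bound of at least 1.09-fold.

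TTTGAA stood in the promoter window of 41 of 66 other mitotic genes and 8 of 41 other S phase genes, and the E2F forms in 7 of 66 and 15 of 41. The classes thus differed in the same direction as those of the 37 genes, against the shares of 20.2% and 2.12% given above for all genes.

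Few genes of S phase entry and of cell cycle exit passed the test. Of 23 tested genes of G1 and S phase entry, Fbxo5, an inhibitor of the anaphase-promoting complex, fell in WT with DSS (-1.18 ± 0.30, adjusted p = 0.0493), where 1.12% of all tested genes fell. The repressor E2f8 (-1.18), the phosphatase Cdc25a (-0.70) and the MuvB subunit Lin54 (-0.74) did not pass. In the knockout none passed by limma (4 were lower at an unadjusted p under 0.05, where 4.95% of all tested genes were), and Cdk6 (-0.64), Lin37 (-0.71), Myc (-0.59) and Cdk4 (-0.82) had the smallest p.

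Of 22 tested inhibitors and genes of cell cycle exit, Cdkn3, a phosphatase that acts on Cdk proteins and is itself highest in mitosis, fell in WT with DSS (-1.11 ± 0.25, adjusted p = 0.0288) and none rose. Of all tested genes 1.12% fell and 2.91% rose in that comparison. The antiproliferative Btg2 (0.83 ± 0.23, adjusted p = 0.0726), the Cdk inhibitor Cdkn1a (-0.71 ± 0.24, adjusted p = 0.161) and the factor Klf4 (0.59) did not pass. In the knockout none passed, with 3 lower at an unadjusted p under 0.05, where 4.95% of all tested genes were. Cdkn1a stood there at -0.71 ± 0.24 (adjusted p = 0.312), Rbl1 at -0.58, Fzr1 at -0.54 and Cdkn2b at -0.51. Averaged over genotypes, Cdkn1a fell by 0.71 ± 0.17 (adjusted p = 0.0338).

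None of 22 tested genes of the DNA damage response passed with DSS in either genotype by limma. At an unadjusted p under 0.05, 3 were higher and 4 lower in WT, where 8.27% and 7.14% of all tested genes were. In the knockout 1 was lower, where 4.95% of all tested genes were. Counts this small in 22 genes are not read as a result. The medians were 0.01 in WT and -0.15 in the knockout. In WT the smallest p were those of Plk2 (1.195 ± 0.31, adjusted p = 0.0562), Chek2 (-1.05), Pmaip1 (0.78) and Sesn1 (-0.66). In the knockout they were those of Plk3 (-0.83 ± 0.24, adjusted p = 0.218), Atr, under background in both groups, Gadd45b (0.60) and Sesn2, with a bound of at least 1.07-fold. Plk3, a stress-responsive kinase of the polo family, was at 11.88 and 11.85 in WT with DSS and at 10.67 and 10.21 in the knockout with DSS. It was the one gene of this list that passed by limma between the genotypes under DSS (-1.42 ± 0.24, adjusted p = 0.0393). Of all tested genes 0.238% were lower and 0.115% higher in the knockout in that comparison.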

How the data were processed

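RNA of mouse colon epithelial cells was measured on 8 Affymetrix arrays, 2 per group. The authors deposited log2 values, made with Affymetrix Expression Console per the submitters' processing notes. Its version, background correction and normalization are not given in the sources, nor is a genome build, and the values were used unchanged. Single gene symbols were given to 19572 of 28846 rows (19505 genes; for 55 with several rows the highest mean was kept). Dropping the 33.3% of genes with the lowest overall mean left 13003. limma 3.58.1 in R 4.3.3 fitted 4 group means (4 residual and 7.27 prior degrees of freedom), with two-sided tests, 7 contrasts and Benjamini-Hochberg adjustment over the genes tested, and was tested on simulated data. The smallest p that exact permutation of 2 against 2 arrays allows is 0.333, so none is given; the number of arrays limits the precision. Where all arrays of a group lie under background, the other group's mean was divided by that background (or the probe's own signal if higher) and printed as at least N-fold.

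The genes, classes and wider lists were chosen with earlier results of these data known. Values on every array are given for genes past the threshold in any contrast, for the largest difference of each role in 3 contrasts, and for Mki67, Top2a, Pcna, Ccne1, Ccne2 and Hjurp; up to 4 genes of smallest p are named per wider list and DSS contrast. Alternatives covered the filter, rows, scaling, variance model, array weights, the choice of arrays fitted, blocking on replicate number, the threshold and arrays left out. Promoter sequences are RefSeq windows of GRCm38.p6.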

Additional observations from a re-analysis of the deposited data

Results flagged for a closer look

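Hjurp had DSS changes of opposite sign in the genotypes, with no overlap between DSS and untreated arrays in either: it was lower in WT by -0.90 ± 0.22 and higher in the knockout by 0.71 ± 0.22 on the log2 scale, the latter not past the threshold. The test of the difference itself gave 1.61 ± 0.30 (adjusted p = 0.145 by limma, unadjusted p = 0.000235), which did not pass over all genes.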

How the results depend on the processing

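No call of a single gene reversed. The number of all tested genes past the threshold also changed between the fits. Of 19 calls of single genes over the 7 comparisons, 14 held under all alternatives that kept every array and 6 with each array left out. For DSS in WT, the 9 genes became 19 without both DSS replicate 1 arrays, and between 1 and 14 with each array left out. For DSS in the knockout, 0 became 0 to 10 with each array left out. For genotype without DSS, 1 became 0 to 1. For genotype with DSS, 0 became 3 without both DSS replicate 1 arrays and 0 to 2 with each array left out. For DSS averaged over genotypes, 9 became 16 at an adjusted p under 0.1 and 5 to 23 with each array left out. For genotype averaged over treatments, 0 became 1 (Hjurp) with a stricter filter on low genes, with array medians set equal, with trend and robust moderation, with array weights and at an adjusted p under 0.1, 3 without both DSS replicate 1 arrays (Bub1, Cdc20 and Ube2c, higher) and 0 to 2 with each array left out. The smaller mean fall of S phase than mitotic genes, 0.46 in WT, ranged from 0.16 to 0.75 with each array left out; in the knockout it was -0.03, with a range of -0.16 to 0.10. The causes were not tested. Whether replicate numbers pair the samples is not known. Deviations of same-numbered arrays correlated with r between -0.25 and 0.28 over pairs of groups, which cannot decide it with 2 arrays per group. With the replicate block 8 genes fell in WT, 10 fell on average over genotypes, and the other counts were unchanged.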
